A study of Mus musculus with 6 samples.

Results

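The 10 genes described here encode inhibitors of the cyclin-dependent kinases (CDKs), the retinoblastoma (RB) family and E2F factors: Cdkn1b (p27), Cdkn2a (INK4a and ARF), Cdkn2b (p15), Cdkn2c (p18), Cdkn2d (p19), Rb1, Rbl1 (p107), Rbl2 (p130), E2f1 and E2f8. They were found as the non-control probes whose RefSeq accession belongs to 1 of the genes, which gave 13 probes for the 10 genes, of 20656 genes with a matched probe in all. Cdkn2a, Cdkn2b and Rbl1 had 2 probes each. Of the 10, 9 passed the filter on low signal, and Cdkn2a did not.

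RNA came from freshly sorted mammary cells of female C57Bl6J mice and was read on one-color Agilent SurePrint G3 arrays, 1 array per sample, on which the brightness of an oligonucleotide probe measures a transcript. The fetal population was CD31-CD45-Ter119-EpCAM++CD49f+ cells of E18.5 embryos, and the adult basal population was EpCAM+CD49f+ cells, negative for CD31, CD45, Ter119 and BP-1, of mice 8 to 12 weeks old, with 3 biological replicates of each. The labels name no mutant allele, transgene or treatment for either, and whether animals were pooled was not given in the sources used here. The adult glands alone were depleted of BP-1-positive cells and were digested overnight, against a shorter digestion of the fetal glands, so that developmental stage, digestion and gate cannot be told apart. The share of probes well above background ran from 76.4% to 83.3% across arrays, and no spot was saturated. Arrays lay on 2 slides. Slide 1 held adult basal replicates 1 and 3 with fetal replicate 1, and slide 2 held adult basal replicate 2 with fetal replicates 2 and 3.

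CDKs paired with cyclins drive a cell from G1 into S phase. The CIP/KIP proteins bind a wide range of cyclin-CDK complexes, whereas the INK4 proteins bind CDK4 and CDK6 and keep them from the D-type cyclins. CDK4, CDK6 and CDK2 phosphorylate RB and its relatives p107 and p130, which releases the activating E2F factors from these "pocket" proteins, and the E2F factors then turn on genes for DNA synthesis. E2f8 is an atypical, repressive member of the family and is itself a target of the activating E2Fs. p130 and p107 also form the DREAM complex with MuvB proteins, which holds down cell cycle genes in resting cells through E2F sites and a short element called CHR. In the mammary gland the D-cyclins, p27 and the INK4 proteins are known for their part in the growth and exit from the cycle of epithelial cells.

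Promoter windows of the 3 members that passed the strictest test below are shown because the genes of this pathway are read through 2 kinds of short site. Windows run from 250 bases before to 50 bases after the transcription start in RefSeq's GRCm38.p6 table, 5′ to 3′ along the gene, and capitals mark each match to the E2F letters TTTCCCGC, TTTCGCGC, TTTGCCGC or TTTGGCGC, or to the CHR letters TTTGAA, on either strand. The Rbl1 window, chr2:157204485-157204784 on the minus strand, held an E2F match 18 bases before the start. The E2f8 window, chr7:48881547-48881846 on the minus strand, held a CHR match 20 bases before the start, read on the opposite strand to the gene. The Cdkn2b window, chr4:89310983-89311282 on the minus strand, held a CHR match 161 bases before the start, also on the opposite strand.
Rbl1: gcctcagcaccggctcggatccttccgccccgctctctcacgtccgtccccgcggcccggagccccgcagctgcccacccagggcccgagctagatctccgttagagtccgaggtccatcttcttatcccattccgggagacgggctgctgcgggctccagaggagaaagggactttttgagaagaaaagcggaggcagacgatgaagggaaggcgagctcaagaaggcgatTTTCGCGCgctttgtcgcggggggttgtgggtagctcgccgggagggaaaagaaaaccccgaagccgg
E2f8: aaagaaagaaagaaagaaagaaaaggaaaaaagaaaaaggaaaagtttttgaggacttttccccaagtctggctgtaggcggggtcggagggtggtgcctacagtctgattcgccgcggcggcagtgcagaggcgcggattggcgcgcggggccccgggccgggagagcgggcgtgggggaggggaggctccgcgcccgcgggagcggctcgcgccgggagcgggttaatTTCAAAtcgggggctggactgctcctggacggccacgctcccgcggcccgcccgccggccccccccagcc
Cdkn2b: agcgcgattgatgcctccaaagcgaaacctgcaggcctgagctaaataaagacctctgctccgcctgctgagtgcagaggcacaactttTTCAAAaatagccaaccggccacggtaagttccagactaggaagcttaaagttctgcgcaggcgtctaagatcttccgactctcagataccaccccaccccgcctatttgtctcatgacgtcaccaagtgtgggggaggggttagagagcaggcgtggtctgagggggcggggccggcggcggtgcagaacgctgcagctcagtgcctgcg

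The table held 11 windows of 9 members, Cdkn2a and Cdkn2c having 2 each. The E2F letters stood in 2 of the 11 windows, against 2.26% of all 32851 windows in the table. The E2f1 window, which held neither motif and is counted among the 11, lies at the start that the table gives. That start appears to lie inside the gene, so the window cannot show whether the main E2f1 promoter holds either motif. The other E2F match was in the distal window of Cdkn2a, 99 bases before its start. The CHR letters stood in 3 of the 11, against 17.9% of all windows, and the remaining match was in the Rbl2 window, 201 bases before the start. By comparison, the E2F letters were in 11 of 22 windows of the G1/S target list used below, and the CHR letters in 10 of 13 windows of the G2/M list. No member window held both motifs, a match is not a measured site, and no binding was measured here.

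Signals are given as log2 of the background-corrected brightness after quantile normalization, so that a difference of 1 is 2-fold, and differences are fetal minus adult basal. To be called, a probe needed a difference of at least 2-fold and a p, adjusted by Holm's method, of 0.05 or less, and the less strict Benjamini-Hochberg adjustment over the same probes is given beside it. Cdkn2b, Rbl1 and E2f8 were called, all 3 higher in fetal cells, and no member was called higher in adult basal cells. In the background, 11.2% of the 15730 tested genes were called, 6.03% higher in fetal and 5.21% higher in adult basal cells. With the Benjamini-Hochberg adjustment 5 members passed as higher in fetal cells, which adds Cdkn2c and E2f1, and 1 as higher in adult basal cells, Cdkn1b, against a background of 29.7%, of which 15.8% were fetal-higher and 13.9% adult-higher. The median difference of the 9 tested members was 2.26, beside -0.04 for all tested genes. Arrays of the populations did not overlap for 8 of the 9 members, but this was also so for 68.4% of all tested genes. As bulk arrays were used, fewer cells of a type and less RNA per cell cannot be told apart. With 3 arrays against 3, an exact 2-sided permutation test cannot give a p below 0.1, so calls rest on the fit across all probes.

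**Figure D1:**
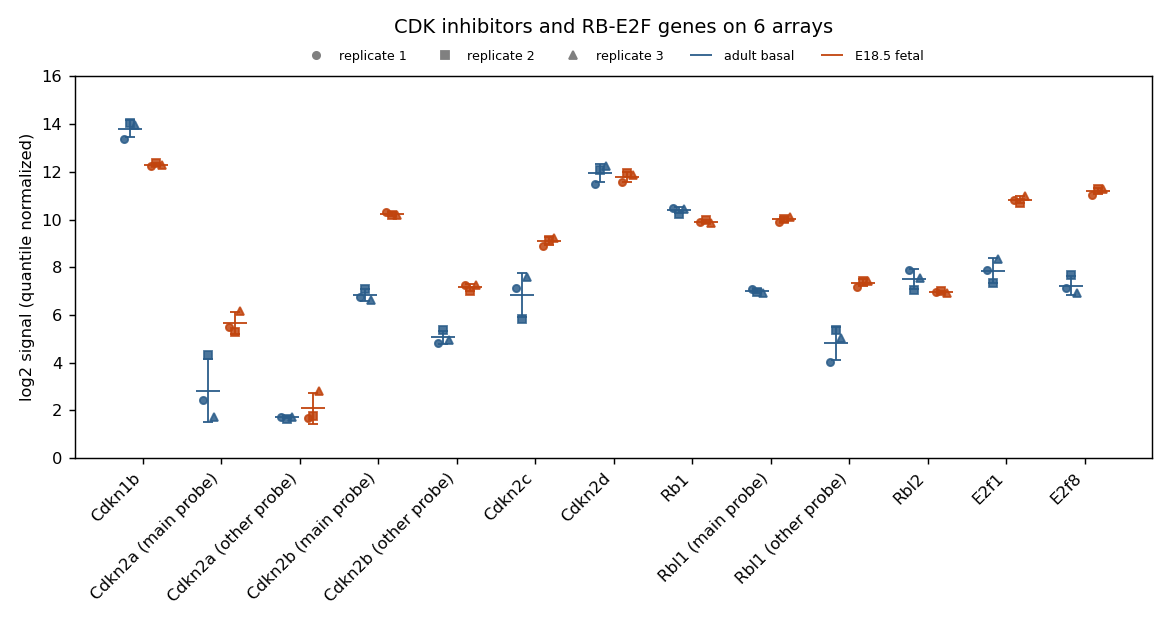
The log2 signal (y axis, quantile normalized) of the 13 probes of the 10 genes on 6 arrays, with adult basal in blue, E18.5 fetal in orange, a symbol for each replicate, and bars for mean ± SD (n = 3). Signals of different probes are not comparable with each other. Cdkn1b was lower on every fetal array, the main probes of Cdkn2b, Rbl1, E2f1 and E2f8 were higher on every fetal array, and the Cdkn2d arrays overlapped.

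Among the CIP/KIP inhibitors, Cdkn1b was the member with the lower fetal signal. It stood at 13.39, 14.07 and 13.97 in adult basal replicates 1 to 3 and at 12.26, 12.37 and 12.28 in the fetal replicates. All fetal arrays lay below all adult arrays, with less spread among the fetal (12.30 ± 0.06) than the adult replicates (13.81 ± 0.36, SD, n = 3 each). The difference of -1.51 (SE 0.18, 95% interval -1.94 to -1.08), 2.84-fold higher in adult basal cells, passed with Benjamini-Hochberg (adjusted p = 0.00026) but not with Holm (adjusted p = 0.99). The other inhibitors of this family went in opposite directions. Cdkn1c (p57), an imprinted inhibitor, was at 8.46, 8.03 and 8.43 in adult basal cells and at 14.24, 14.33 and 14.36 in fetal cells. It was 64.1-fold higher in fetal cells (6.0, SE 0.14, Holm-adjusted p = 1.2e-05). The p53 target Cdkn1a (p21) was at 12.48, 12.41 and 12.67 in adult basal and 10.62, 10.20 and 10.35 in fetal cells, a called difference of -2.13 (SE 0.14, Holm-adjusted p = 0.019). The Cdkn1a call was lost under 10 of 20 alternatives, and its other, dimmer probe was below the low-signal filter, with means of 5.41 in fetal and 5.91 in adult basal cells.

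The INK4 genes differed among themselves. Cdkn2b had the clearest difference, with 6.77, 7.10 and 6.61 in adult basal cells and 10.33, 10.17 and 10.18 in fetal cells. It was 10.5-fold higher in fetal cells (3.40, SE 0.14, 95% interval 3.06 to 3.73, Holm-adjusted p = 0.00089). Its other, dimmer probe gave 4.83, 5.38 and 4.96 against 7.25, 7.0 and 7.24. That difference had the same direction but was smaller (2.11, SE 0.16) and just missed Holm (adjusted p = 0.057, Benjamini-Hochberg 2.8e-05). The dimmer probe passed the low-signal filter, set at 5.95, through the fetal arrays alone, and its difference was 1.17 after normexp correction of the background.

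Cdkn2c, which like Cdkn2b acts on CDK4 and CDK6, was at 8.90, 9.16 and 9.24 in fetal cells and varied in adult basal cells, at 7.15, 5.81 and 7.57. The difference of 2.26 (SE 0.41, 95% interval 1.28 to 3.23) passed with Benjamini-Hochberg (adjusted p = 0.0023) and not with Holm (adjusted p = 1). Adult basal replicate 2 was the low array, and without it the difference was 1.74, with a Holm p of 0.39. Cdkn2d overlapped between the populations, at 11.51, 12.06 and 12.24 in adult basal and 11.56, 11.95 and 11.85 in fetal cells. Its difference of -0.15 (SE 0.20) had a 95% interval of -0.64 to 0.33, within which a change of 2-fold does not fall.

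Cdkn2a, whose locus yields INK4a and ARF from overlapping transcripts, was near background. Its brighter probe was at 5.49, 5.29 and 6.17 in fetal and 2.44, 4.31 and 1.74 in adult basal cells, and it was well above background on all 3 fetal arrays and on adult basal replicate 2 alone of the adult arrays. The fetal arrays were all higher, by 2.82 between the means, but the probe failed the low-signal filter and was not tested. Without that filter its Holm p was 1. The size of the difference depended on how the background was treated, at 0.73 after normexp correction and 1.44 after an offset of 16. The other probe, at 1.73, 1.65 and 1.72 in adult basal and 1.66, 1.75 and 2.82 in fetal cells, was well above background on no array. Both probes carry the same accession, and which product each reads was not tested.

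The pocket proteins did not move as a group. Rbl1 was called, and it had the narrowest replicate spread of the called members. Its main probe was at 7.10, 6.97 and 6.94 in adult basal cells and 9.91, 10.02 and 10.09 in fetal cells. The populations were far apart relative to that spread, 8.01-fold higher in fetal cells (3.00, SE 0.10, 95% interval 2.76 to 3.25, Holm-adjusted p = 0.00022). The dimmer Rbl1 probe, at 4.04, 5.37 and 5.02 against 7.19, 7.44 and 7.44, gave a difference of 2.54 (SE 0.32), which passed with Benjamini-Hochberg (adjusted p = 0.00031) and not with Holm (adjusted p = 1). This probe, too, passed the filter through the fetal arrays alone, and its difference was 1.31 after normexp correction.

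Rb1, the founding member, was slightly lower on every fetal array: 9.89, 10 and 9.85, against 10.50, 10.25 and 10.44 in adult basal cells. The difference of -0.49 (SE 0.11, 95% interval -0.75 to -0.23) had a Benjamini-Hochberg p of 0.0064 but fell short of 2-fold. The Rb1 probe is printed 10 times on each array, and the SD among the 8 to 10 spots used was between 0.03 and 0.09, which covers the spread within an array only. Rbl2 was at 7.88, 7.05 and 7.54 in adult basal and 6.95, 7.02 and 6.94 in fetal cells. All fetal arrays were lower, but adult basal replicate 2 lay close to them, and the difference of -0.52 (SE 0.20, 95% interval -0.99 to -0.05) did not pass (Benjamini-Hochberg adjusted p = 0.057).

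Both E2F members were higher on every fetal array. E2f8 had the largest difference of the tested members, from 7.14, 7.66 and 6.90 in adult basal to 11.05, 11.28 and 11.29 in fetal cells. This was 15.7-fold (3.97, SE 0.20, 95% interval 3.51 to 4.44, Holm-adjusted p = 0.0028). The call was kept under 17 of 20 alternatives and lost without fetal replicate 2 (Holm-adjusted p = 0.053) and within either slide. The activator E2f1 was at 7.87, 7.34 and 8.36 in adult basal and 10.83, 10.68 and 11 in fetal cells. It was 7.89-fold higher in fetal cells (2.98, SE 0.25, 95% interval 2.40 to 3.56), but the adult replicates spread over more than 1 log2 unit and it missed Holm (adjusted p = 0.088, Benjamini-Hochberg 3.8e-05). E2f1 passed Holm under 6 of the 19 alternatives that kept the Holm adjustment, among them without adult basal replicate 2 (adjusted p = 0.033) and without adult basal replicate 3 (adjusted p = 0.034).

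**Figure D2:**
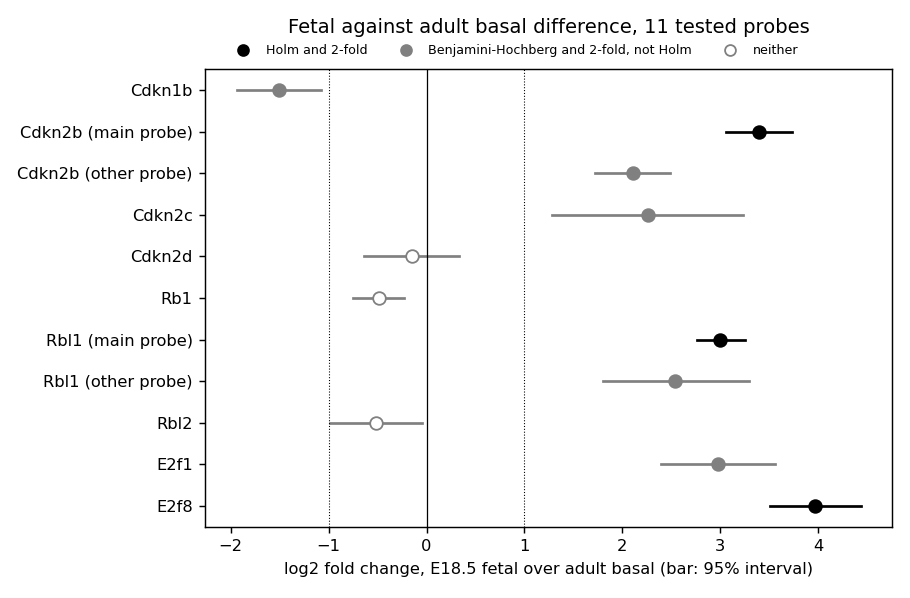
The log2 fold change (x axis, fetal over adult basal) of the 11 tested probes of 9 genes, with 95% intervals from limma as bars and dotted lines at 2-fold. Black points passed Holm and 2-fold, grey points passed Benjamini-Hochberg and 2-fold only, and open points passed neither. Cdkn2b, Rbl1 and E2f8 are the black points, at 3.40, 3.00 and 3.97.

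The remaining genes of the pathway were read from lists by role. Of 72 listed genes 70 were tested, and 37 were called higher in fetal cells and 1, Cdkn1a, higher in adult basal cells. Their median difference was 2.25. The counts by list that follow stand beside the 11.2% of all tested genes that were called. The lists differed widely, from a median of 0.08 for the regulators of the CDK inhibitors to 5.73 for the G2/M list. Genes below that are named only to spell out a small count were chosen after their values were seen.

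Of the other E2F factors and their DP partners, 1 of 8 was called by its brightest probe. This was the activator E2f2, at 7.55, 7.78 and 7.28 in adult basal and 11.78, 11.94 and 11.83 in fetal cells, 19.9-fold higher in fetal cells (4.31, SE 0.14, Holm-adjusted p = 0.00016). Tfdp1, a DP partner, was higher by 1.22 and missed Holm (adjusted p = 0.23, Benjamini-Hochberg 7.9e-05). For E2f3, E2f4, E2f5 and E2f6 the differences of the brightest probes were 0.34, 0.12, -0.01 and -0.14, and none passed. The list's median was 0.22, and 3 of the 8 genes were called when any of their probes counted. Of the MuvB genes, B-MYB and FOXM1, 1 of 7 was called, Lin9, a MuvB subunit, at 8.39, 8.38 and 8.39 in adult basal and 9.70, 9.85 and 9.86 in fetal cells (1.41, SE 0.10, Holm-adjusted p = 0.024). Its call was lost under 11 of 20 alternatives. Lin37, another subunit, differed by -1.0, with the lower signal in fetal cells, and passed with Benjamini-Hochberg (adjusted p = 0.00013) but not with Holm (adjusted p = 0.44). Differences for Lin52, Lin54 and Rbbp4 were 0.10, 0.08 and 0.29, and the list's median was 0.10. When any probe counted, 3 of these 7 genes were called. By the brightest probes, the called shares of both lists were near the 11.2% of all tested genes.

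Of 7 tested G1 cyclins and CDKs, 2 were called, and both were cyclins. Ccnd1 (cyclin D1), the partner of CDK4 and CDK6, was at 8.57, 7.78 and 8.35 in adult basal and 14.81, 14.82 and 14.82 in fetal cells, 96.0-fold higher in fetal cells (6.59, SE 0.20, Holm-adjusted p = 7.9e-05). Ccne1 (cyclin E1), the partner of CDK2, was higher by 2.82 (SE 0.12, Holm-adjusted p = 0.00076). Cdk4 and Cdk6 passed with Benjamini-Hochberg in addition, with differences of 1.19 and 3.58. Cdk6 passed the low-signal filter through the fetal arrays alone, and 2 of its 3 adult arrays were well above background. Ccne2 was below the low-signal filter. Among 10 tested regulators of the inhibitors, Ezh2, the Polycomb methyltransferase known to hold down the Cdkn2a locus, was called higher by 2.21 (SE 0.11, Holm-adjusted p = 0.0021), and so was Cks1b, a cofactor in the breakdown of p27 (1.3, SE 0.10, Holm-adjusted p = 0.049). The Cks1b call was lost under 15 of 20 alternatives. Myc, known to repress Cdkn2b, and Cbx7, a Polycomb protein known to repress Cdkn2a, were lower in fetal cells by Benjamini-Hochberg only, with differences of -1.34 and -1.29. Bmi1, another Polycomb repressor of Cdkn2a, went the other way by Benjamini-Hochberg only, with differences of 1.06 and 1.03 for its 2 probes. No probe matched Skp2.

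Most genes of both target lists were called. Of 22 G1/S genes known as E2F targets, 17 were called, all higher in fetal cells, with a median of 3.12. Cdc6 and Orc1, both among the 17, passed the low-signal filter through the fetal arrays alone. No adult array measured Cdc6 well above background. The largest differences were 7.19 for Uhrf1, a cofactor of maintenance DNA methylation (SE 0.18, Holm-adjusted p = 1.8e-05), 6.14 for thymidine kinase Tk1 (SE 0.13, Holm-adjusted p = 7.3e-06) and 5.96 for the ribonucleotide reductase subunit Rrm2 (SE 0.15, Holm-adjusted p = 2.5e-05). The 5 not called were Cdc25a, Chek1, Dnmt1, Mcm7 and Tyms. Chek1 and Tyms, at -0.18 and 0.10, did not pass with Benjamini-Hochberg either. Of 14 G2/M genes 13 were called, and Ttk was not. Aurkb, Kif11 and Ttk passed the low-signal filter through the fetal arrays alone, as Bub1 did. Ttk was at least 11.4-fold higher in fetal cells (Holm-adjusted p = 0.14), with no adult array well above background. The median of 5.73 became 5.57 when the 3 genes that no adult array measured well above background were placed at their bounds. Examples were the spindle checkpoint kinase Bub1 (6.92, Holm-adjusted p = 0.045), Cdk1 (6.77, Holm-adjusted p = 0.0047) and the mitotic kinesin Kif11. Of 2 dimmer Cdk1 probes, 1 was called (6.17, Holm-adjusted p = 0.00085) and the other differed by 0.96 and was not called, and both passed the filter through the fetal arrays alone. The Bub1 and Cdk1 calls were lost under 12 and 7 of 20 alternatives. Bub1 passed the filter through the fetal arrays alone, and its difference was 6.27 without adult basal replicate 1 and 4.67 after normexp correction. Kif11, which no adult array measured well above background, was at least 61.2-fold higher in fetal cells (Holm-adjusted p = 0.00029), a bound that sets the adult level, on each array, at the higher of the lowest signal well above background and the probe's own. The Kif11 bound holds for the processed signal, and after normexp correction the difference was 3.76.

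**Figure D3:**
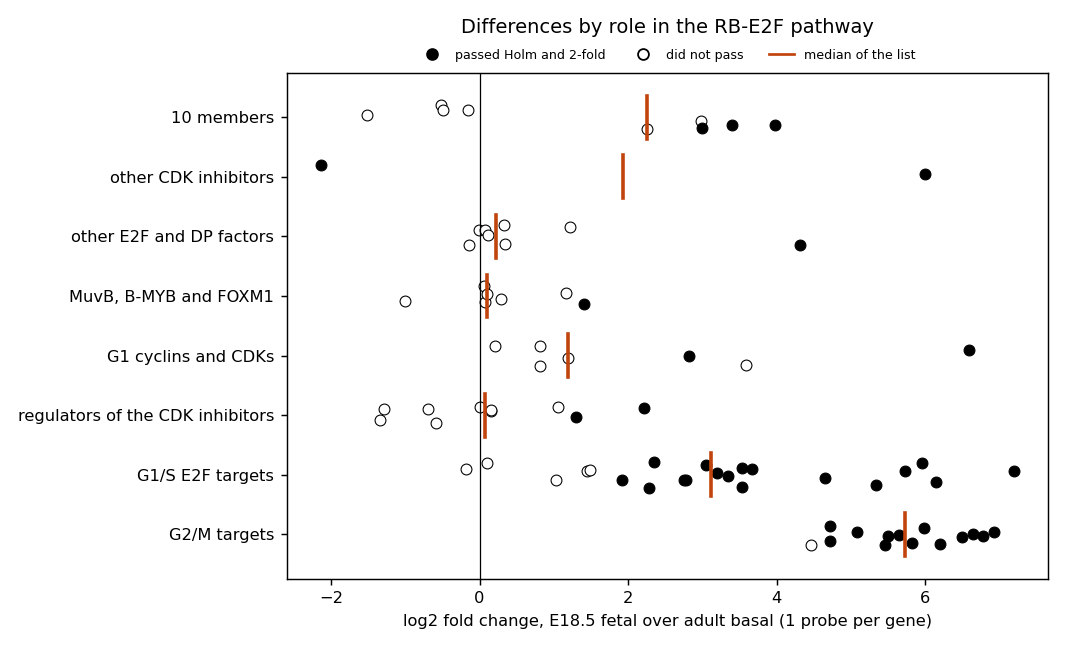
The log2 fold change (x axis, fetal over adult basal) of each tested gene by its brightest probe, in rows by role, with filled points for genes that passed Holm and 2-fold, open points for those that did not, and an orange line at the median of each list. Points are spread vertically for visibility only. The G2/M list had a median of 5.73 and the G1/S list of 3.12, whereas the lists of other E2F and DP factors and of MuvB, B-MYB and FOXM1 had medians of 0.22 and 0.10.

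Several of these counts, and the median of the list of other E2F and DP factors, rest on which probe stands for a gene. E2f7, the other atypical E2F beside E2f8, had a brightest probe without a difference (8.91, 9.34 and 8.86 in adult basal, 9.19, 9.09 and 9.06 in fetal cells). The other E2f7 probe, with the same accession, was at 4.54, 5.09 and 5.01 in adult basal and 10.85, 11.12 and 11.05 in fetal cells. This probe passed the low-signal filter through the fetal arrays alone. By it E2f7 was 70.0-fold higher in fetal cells (6.13, SE 0.17, Holm-adjusted p = 4e-05), and by the mean of the 2 probes the difference was 3.10 (Holm-adjusted p = 0.0012). After normexp correction the difference by the dimmer E2f7 probe was 4.49. Foxm1, a driver of G2/M genes, gave 0.06 by its brightest probe and 2.86 (SE 0.11, Holm-adjusted p = 0.00033) by the other. Mybl2 (B-MYB) gave 1.16 and 2.76 in the same order, and Tfdp2 gave 0.33 and 2.11, with the dimmer probe called in each case. Lin52 went from 0.10 to -0.67 by the next brightest probe and Rbbp4 from 0.29 to -0.44, and none of these was called. Counting a gene when any of its probes was called, a choice made after these values were seen, gave 42 called pathway genes in place of 38, and 3 members as before.

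**Figure D4:**
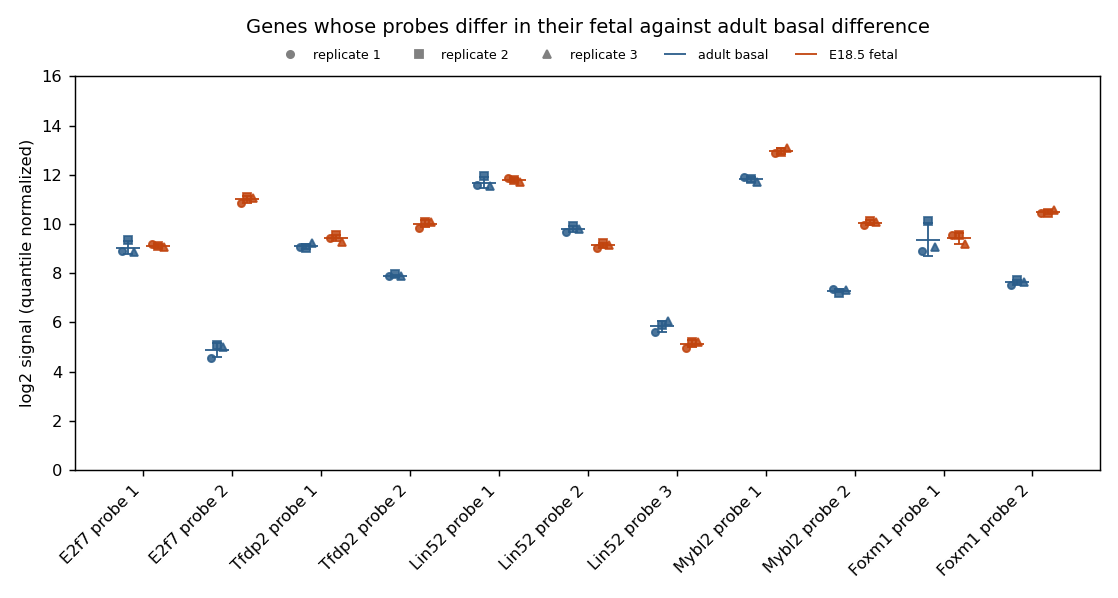
The log2 signal (y axis, quantile normalized) of each probe of E2f7, Tfdp2, Lin52, Mybl2 and Foxm1 on 6 arrays, with adult basal in blue, E18.5 fetal in orange, a symbol for each replicate and bars for mean ± SD (n = 3); probe 1 is the brightest. For E2f7 the populations overlap on probe 1 and are 6.13 apart on probe 2.

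For each tested member, the genes with the most similar pattern were found by the root mean square difference in mean-centered log2 signal over the 6 arrays, among 15721 other genes. This is a description of 6 arrays in 2 populations, so that any gene with a like difference and small spread scores well. Nearest to Rbl1 were Poc1a, a centriole protein (0.041), Dbf4, the activator of the replication kinase CDC7 (0.042), and the histone H2aj (0.073). Nearest to E2f8 were the ion channel Asic1 (0.094), the spindle checkpoint gene Mad2l1 (0.1) and the histone H4f16 (0.101). Cdkn2b lay nearest to Faim2 (0.087), Atp6v1b1 (0.087) and the imprinted gene Peg3 (0.097), and Cdkn1b nearest to Chd9 (0.056), Hspa13 (0.075) and Tmem39a (0.075). Rb1 was nearest to Vps4b (0.036), Txndc17 (0.04) and Taf13 (0.041), and Rbl2 to Snx10 (0.067), Rbm43 (0.077) and Pcdhb20 (0.08). For the members with a wide adult spread the nearest genes were farther away: Arhgap18 (0.175), Hat1 (0.186) and D630045J12Rik (0.194) for Cdkn2c, and Grtp1 (0.17), Ly6g6e (0.202) and Adamts15 (0.207) for E2f1. Cdkn2d lay nearest to Msmp (0.086), Thpo (0.102) and Cage1 (0.109).

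By the main probes, differences within a slide kept the direction of the pooled ones for all 10 genes. On slide 1 and slide 2, in that order, they were 3.63 and 3.07 for Cdkn2b, 2.88 and 3.09 for Rbl1, 4.03 and 3.62 for E2f8, 2.71 and 3.50 for E2f1, and -1.42 and -1.74 for Cdkn1b. Cdkn2c varied more, with 1.54 and 3.39, as did Cdkn2a, with 3.40 and 1.42, although neither adult array of slide 1 measured Cdkn2a well above background. The Rbl2 difference was -0.75 on slide 1 and close to 0 on slide 2, at -0.07. With 3 arrays on a slide no member passed Holm, while in a fit that held slide as a block Cdkn2b (adjusted p = 0.0063), Rbl1 (adjusted p = 0.0024) and E2f8 (adjusted p = 0.0016) did.

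**Figure D5:**
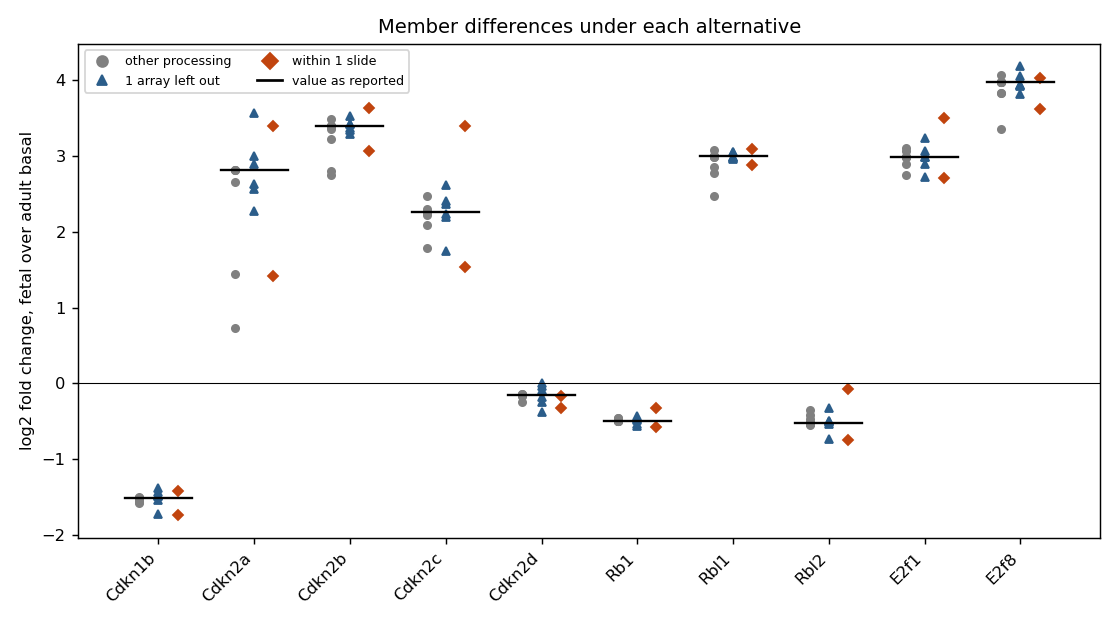
The log2 fold change (y axis, fetal over adult basal) of the main probe of each of the 10 genes under each alternative, with grey points for other processing, blue triangles for 1 array left out, orange diamonds for the values within 1 slide and a black line for the value as reported. Cdkn2a ranged from 0.73 to 3.56, and Rbl1 from 2.47 to 3.09.

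Marker genes of the cell types that the gates could hold moved with the populations as well. All 8 basal mammary markers were well above background on every array, and 6 were called higher in adult basal cells by their brightest probes (median -4.01). Among these 6, Myh11 passed the low-signal filter through the adult arrays alone. Trp63 differed by -0.08 by its brightest probe and by -3.06, a called difference, by another. The brightest was the smooth muscle actin Acta2, at 18.56, 18.48 and 18.39 in adult basal and 14.59, 14.55 and 14.07 in fetal cells, and the summed signal of the list was 752096 to 822518 in adult basal and 52204 to 65568 in fetal cells. Of 9 luminal markers, Elf5, Foxa1 and Kit were called higher in fetal cells. In the opposite direction, Esr1 (-3.58, adjusted p = 8.6e-05) and Krt19 (-1.22, adjusted p = 0.00041) passed with Benjamini-Hochberg and not with Holm, and Prlr differed by -0.35 by its brightest probe and by 1.85, which was called, by another. Elf5 passed the low-signal filter through the fetal arrays alone and Esr1 through the adult arrays alone, and 1 of 3 fetal arrays measured Esr1 well above background. The brightest, Krt18, differed by 0.58 and was not called, and the list's sum was 121123 to 127085 in adult basal and 155513 to 199150 in fetal cells. Of 6 fibroblast markers, 1 was called, Dcn, lower in fetal cells (-3.78, Holm-adjusted p = 0.0023), and Lum (-1.05) was lower by Benjamini-Hochberg only. The sum was 15538 to 25911 in adult basal and 5429 to 7019 in fetal cells, with Col1a2 the brightest over all 6 arrays. In adult basal cells Dcn, at 13.04, 13.39 and 13.72, was the brightest and made the largest part of the sum. Col1a1, Col1a2, Col3a1 and Pdgfra differed by -0.01, -0.90, -0.89 and -0.37, and none passed.

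No marker was called on the other lists. The sums of the 6 leukocyte markers, of which Itgam was the brightest, were 16350 to 24225 in adult basal and 17585 to 24080 in fetal cells, and Lyz2 (-1.76) was lower in fetal cells by Benjamini-Hochberg only, after passing the filter through the adult arrays alone. A dimmer probe of the macrophage marker Adgre1, which no fetal array measured well above background, was at least 9.8-fold lower in fetal cells by Benjamini-Hochberg only, whereas its brightest probe differed by -0.42. The 5 endothelial markers, with Kdr the brightest, summed to 11390 to 13902 and 10811 to 12616, and Kdr, which sets most of the sum, differed by -0.04. The median of the 4 tested endothelial markers was -0.85, and Cdh5 (-2.70) and Vwf (-1.56) were lower in fetal cells by Benjamini-Hochberg only, Cdh5 having passed the filter through the adult arrays alone. The brightest erythroid marker, the globin gene Hba-a1, was at 8.75, 9.93 and 8.71 in adult basal and 9.02, 10.06 and 9.71 in fetal cells, and the populations overlapped. Another globin gene, Hbb-bt, was at 3.54, 3.23 and 3.67 in adult basal and 6.33, 9.28 and 9.29 in fetal cells. No adult array measured it well above background, it was at least 20.4-fold higher in fetal cells, and it passed with Benjamini-Hochberg (adjusted p = 0.00096) and not with Holm. The summed signal of the G2/M list was 2039, 4343 and 3115 in adult basal replicates 1 to 3 and 132919, 145248 and 145201 in fetal replicates 1 to 3. The highest adult value was that of replicate 2. By the main probes that array was the lowest adult array for Cdkn2c, Rb1, Rbl2 and E2f1. It was the highest adult array for Cdkn1b, Cdkn2a, Cdkn2b and E2f8, and lay between the others for Cdkn2d and Rbl1. The part of cell type makeup and of the share of dividing cells in the members' differences was not tested.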

How the data were processed

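The 6 arrays were deposited as Feature Extraction 11.0.1.1 tables (version per the submitters' processing notes). The authors' processed spot intensity is linear, background-subtracted within each array and not normalized between arrays. A deposited table of log2 values, quantile normalized by the authors in GeneSpring, served as an alternative; each column followed its own array (r at least 0.997). The labels name Agilent's Low Input Quick Amp kit and the methods its whole-transcript exon protocol; which was used is not settled here.

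Control and outlier spots (104 to 326 per array) were left out, log2 intensities of a probe's spots were averaged and the 6 arrays quantile normalized. The files give no gene names, so unversioned accessions were matched to RefSeq's GRCm38.p6 table: 27229 of 55681 probes (48.9%) matched 20656 genes. Because the array design names another assembly, its gene coordinates were not used for probes; positions are printed for RefSeq promoter windows only. Probes below 5.95, the boundary of the lowest of 3 k-means clusters (100 starts, seed 1), in each of the populations were set aside, leaving 20442 for testing. Differences were fitted in R 4.3.3 with limma 3.58.1 (lmFit, then eBayes) without covariates, as in the study's methods, and was tested on simulated data. Tables and plots used Python 3.11.15, pandas 2.3.3, numpy 2.4.6 and matplotlib 3.10.9.

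A gene's brightest probe stood for it. Named genes were all member probes, the small role lists, the 3 called genes per direction with the largest fold change of each longer list, the 3 nearest genes of each member and the brightest marker of each list. Kif11 was chosen by its fitted value, which rests on adult signals not well above background, so its rank is not established. The members, lists and rules were chosen with earlier results of these data known, and lists are described by counts and medians only. Alternatives were 75th percentile scaling, deposited values, normexp (offset 50), 2 other low-signal filters, all probes, Benjamini-Hochberg, trend and robust variance, an offset of 16, each array left out, replicate number or slide as a block, each slide alone and a gene's probes averaged. The number of arrays, 3 per population, limits the precision. An item withheld from the marker lists is not reported here.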

Additional observations from a re-analysis of the deposited data

How the results depend on the processing

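By the main probes, direction held for Cdkn1b, Cdkn2a, Cdkn2b, Cdkn2c, Cdkn2d, Rb1, Rbl1, Rbl2, E2f1 and E2f8 under every alternative run, although Cdkn2d came within rounding of 0 without adult basal replicate 3. The dimmer Cdkn2a probe, well above background on no array, went from 0.38 to -0.06 within slide 1. Over all named probes and alternatives, 825 values counted as the same, 78 lost and 21 gained a call, 18 reversed and 4 moved. For tested probes, the same means direction and side of the threshold. The sign change of the dimmer Cdkn2a probe, which was not tested, is counted among the 825.

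The 2269 called probes became 1182 without the low-signal filter and 6130 with Benjamini-Hochberg, which called 6 members. With 1 array left out the count was 950 to 2014, with 2 to 4 members and 27 to 36 pathway genes. Within slide 1 it was 272 probes, 0 members and 12 pathway genes, and within slide 2 it was 239 probes, 0 members and 14 pathway genes. The 3 arrays of a slide leave 1 residual degree of freedom per probe, and the lone array of a population is assumed to vary like the other population. On slide 2, 69.5% of calls were higher in fetal cells, against 53.3% in all. No scaling moved the median of all probes by over 0.1.

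Same-numbered arrays did not deviate together (r = -0.032, 0.093 and 0.049, against -0.13 to 0.12 for differently numbered arrays). Deviations of 3 arrays per population cannot settle whether the numbers pair the samples, and the labels name no pairing. With replicate number as a block, 1303 probes, 4 members (E2f1 in addition) and 31 pathway genes were called.

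Among tested probes, reversals were confined to values near 0 that were not called: E2f5 (0.07 with normexp, -0.09 to 0.07 with 1 array left out, 0.05 within slide 1), E2f7 by its brightest probe (-0.01 to 0.23 with 1 array left out, -0.27 within slide 2), Lin52 (-0.18 within slide 2, -0.28 by the mean of its probes), Lin54 (-0.10 to 0.19 with 1 array left out, -0.03 within slide 1), Rbbp4 (-0.08 by the mean of its probes) and Foxm1 by its brightest probe (-0.17 to 0.44 with 1 array left out, -0.10 with slide as a block, -0.76 within slide 2). The cause was not tested.

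Low signal over background left Cdkn2a and Ccne2 untested and allowed only bounds for 4 pathway genes (Aurkb, Cdc6, Kif11 and Ttk) and for Hbb-bt.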
